A study of Mus musculus with 2 samples.

Results

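The genes described here are 10 transcription factors and cofactors that act with serum response factor (SRF) and myocardin in smooth muscle: *Srf*, *Myocd*, *Mkl1*, *Mkl2*, *Elk1*, *Klf4*, *Klf5*, *Gata6*, *Mef2c* and *Foxf1*. They were taken by symbol from a table of 18159 genes, and all 10 were listed and above 0 in both libraries. The table holds mRNA-seq levels of the jejunal tunica muscularis, which is the smooth muscle coat of the gut peeled from the mucosa, from C57BL/6 mice aged 15 days. *Dnmt1*-WT and *Dnmt1*-KO are represented by 1 library each, and the methods state that mice of both sexes stand behind each genotype. Per the study, both groups carry smMHCCre-eGFP/+, a transgene with Cre recombinase and eGFP behind the *Myh11* promoter, and *Dnmt1*-KO mice in addition carry floxed *Dnmt1* alleles (Dnmt1lox/lox), which Cre deletes in smooth muscle cells (SMCs). Other cells of the wall keep the gene. The strain label, with the transgene and the floxed alleles, is the same for both samples, and the free-text description of both names the knockout, so the groups were taken from the genotype label.

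SRF is a DNA-binding protein that recognises CArG boxes, short A- and T-rich elements in the promoters of many muscle and growth-response genes. It is present in most cell types, and its output depends on partners: myocardin and its relatives MKL1 and MKL2 direct it to contractile genes, while ternary complex factors such as ELK1 direct it to growth-response genes and compete with myocardin for the same surface of SRF. KLF4 and KLF5 are zinc-finger factors linked to the loss of the contractile state, and MEF2C and GATA6 are further muscle regulators. FOXF1 is a forkhead factor of gut mesenchyme that responds to hedgehog signals.

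The promoter of *Srf* is shown because SRF is known to act on its own gene. *Srf* lies on the minus strand of chromosome 17 of GRCm38, from 46548329 to 46556175. A CArG box is 10 bases that begin with CC, end with GG and hold 6 bases, each A or T, in between, and it reads as a CArG box on either strand. The sequence below is the stretch chr17:46556176-46556412 on the minus strand (RefSeq, GRCm38.p6), upstream of the annotated starts, and the capitals mark the CArG boxes, whose first bases lie at -82 and -62 from the RefSeq start.
*Srf* promoter: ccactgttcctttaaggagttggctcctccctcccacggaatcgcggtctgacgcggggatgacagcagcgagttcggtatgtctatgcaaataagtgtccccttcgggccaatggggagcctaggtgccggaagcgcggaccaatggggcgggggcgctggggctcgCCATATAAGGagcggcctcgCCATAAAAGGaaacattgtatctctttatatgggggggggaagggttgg

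Among windows that run from 250 bases before to 50 bases after a RefSeq start, 535 of 32851 held a CArG box, or 1.63%. Counted by gene, 1.81% of all genes with a window held one. Of the 10 genes, 6 had such a window, and *Srf* was the one with a CArG box. With 1 base of the middle allowed to be other than A or T, 9.98% of all windows and 11.3% of all genes with a window held a match. Among the 6 genes *Mkl1* was added. *Myocd*, *Klf5*, *Gata6* and *Foxf1* had no entry. A match in letters is a description of the window and not a binding site, and sequence outside the windows was not searched.

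In the *Dnmt1*-WT library the 10 genes ranged from 3.5 to 94.57 FPKM, fragment counts set relative to transcript length and sequencing depth, a unit that allows levels of genes to be compared. *Srf* was the most abundant, followed by *Foxf1*, *Myocd*, *Mkl1*, *Klf4*, *Elk1*, *Mef2c*, *Gata6*, *Klf5* and *Mkl2*. In the *Dnmt1*-KO library the range was narrower, from 5.1 to 55.15 FPKM, and the highest level was 10.8 times the lowest, against 27.0 times in *Dnmt1*-WT. *Srf* and *Foxf1* kept the first places and *Mkl2* the last, while *Mkl1* and *Klf4* stood above *Myocd*. With 1 library per genotype there is no spread to set neighbours in this order, or any difference below, against, and none of them has a replicate check.

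**Figure D1:**
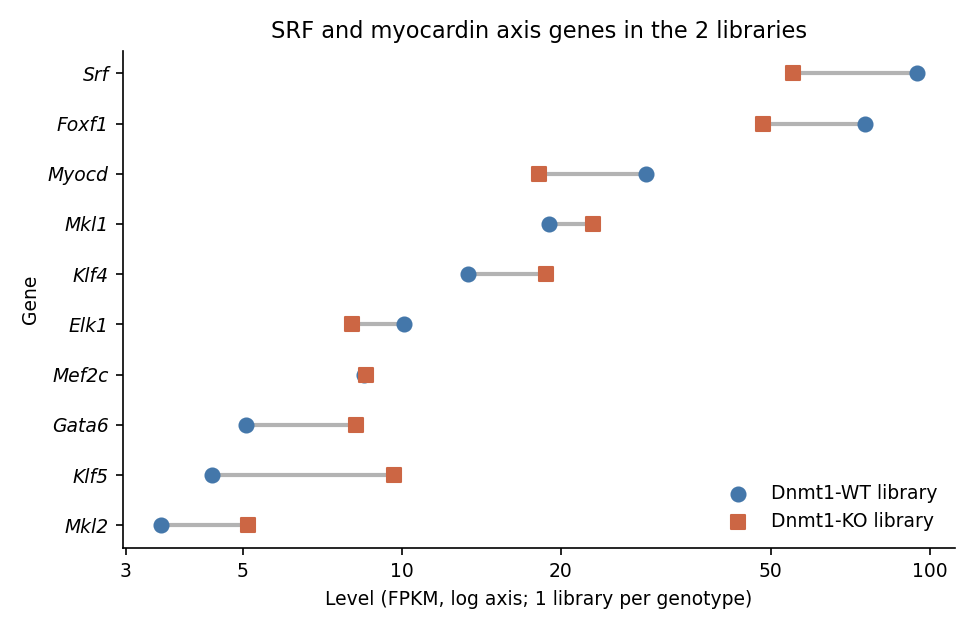
Level of each of the 10 genes (FPKM, log axis) in the *Dnmt1*-WT library (circles) and the *Dnmt1*-KO library (squares), ordered by *Dnmt1*-WT level, with a line joining the points of a gene. *Srf*, *Foxf1* and *Myocd* at the top lie to the left in *Dnmt1*-KO, and *Gata6*, *Klf5* and *Mkl2* at the bottom lie to the right.

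Ratios below are *Dnmt1*-KO over *Dnmt1*-WT without rescaling, and a gene was counted as past the fold at a ratio of 2 or more, or 0.5 or less. Of the 10 genes, 1, *Klf5*, at least doubled, and 0 had a level lower by that fold. Over the 16102 genes above 0 in both libraries these shares were 11.8% and 4.98%, and over the 12758 genes at 1 FPKM or more in both, as all 10 were, they were 5.53% and 2.82%. At a fold of 1.5, 2 genes were higher (*Klf5* and *Gata6*) and 3 lower (*Srf*, *Myocd* and *Foxf1*). Under the upper quartile scaling the ratio of *Foxf1* was 0.670, short of that fold, and the ratio of *Mkl2* was 1.52, past it. The shares of genes past that fold were 19.7% higher and 12.6% lower over genes above 0 in both, and 12.4% and 10.5% over genes at 1 FPKM or more. A ratio below 1 was found for 4 of the 10 genes, against 49.1% of the genes above 0 in both libraries and 52.7% of those at 1 FPKM or more. The median log2 ratio of the 10 genes, with 0.1 added to each FPKM, was 0.14, and that of all genes above 0 in both was 0.0050. The 10 genes thus differed in both directions.

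**Figure D2:**
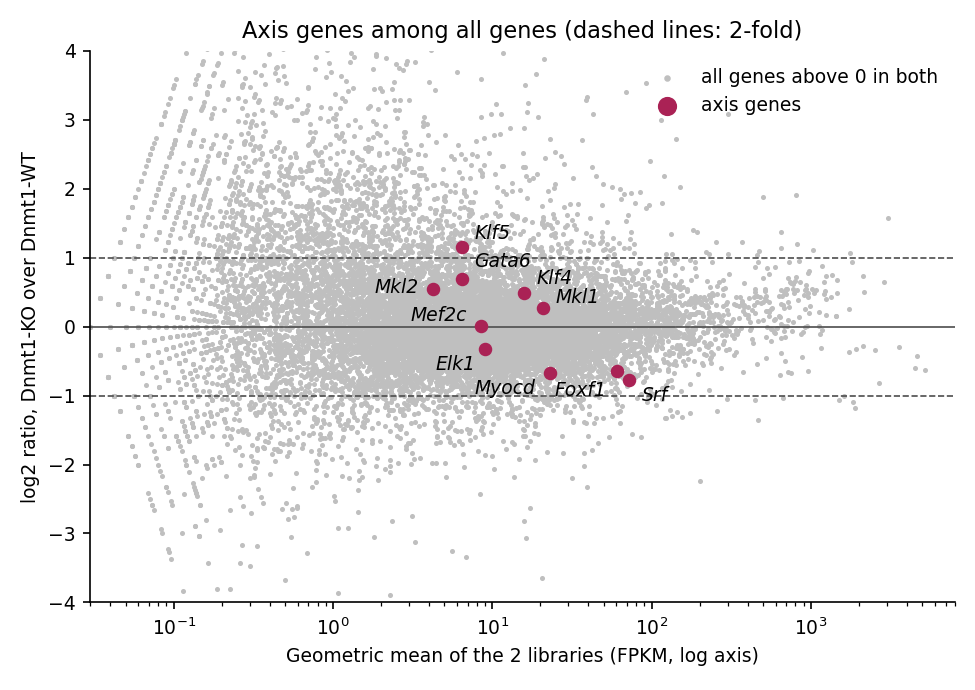
The log2 ratio of *Dnmt1*-KO to *Dnmt1*-WT against the geometric mean of both libraries (FPKM, log axis) for the 16102 genes above 0 in both (grey) and the 10 genes (red), with dashed lines at a fold of 2. *Klf5* lies above the upper line and the other 9 lie between the lines; 108 genes fall outside the ratio axis, which ends at -4 and 4.

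*Srf*, which encodes the DNA-binding partner shared by all the cofactors below, was listed at 94.57 FPKM in *Dnmt1*-WT and 55.15 FPKM in *Dnmt1*-KO, a ratio of 0.583. A ratio as low or lower was found for 7.92% of the genes above 0 in both libraries. By level, *Srf* went from place 688 of all genes to place 1271. Its log2 ratio stayed between -0.88 and -0.71 under the scalings and pseudocounts tried.

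*Myocd*, the smooth and cardiac muscle coactivator of SRF, was listed at 29.06 FPKM in *Dnmt1*-WT and 18.18 FPKM in *Dnmt1*-KO, a ratio of 0.626. The level of *Srf* was 3.25 times that of *Myocd* in *Dnmt1*-WT and 3.03 times in *Dnmt1*-KO, so the balance of the pair differed little while both were lower. Its relatives differed in the other direction. *Mkl1*, a coactivator of SRF that is held in the cytoplasm by monomeric actin, was listed at 19.01 and 23.01 FPKM, a ratio of 1.21. *Mkl2*, which is regulated in the same way, was listed at 3.5 and 5.1 FPKM, a ratio of 1.46. Neither passed the fold.

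In RNA of the whole muscle coat, the composition of the family differed more than its sum. Whether it differed within SMCs was not tested. *Myocd*, *Mkl1* and *Mkl2* summed to 51.57 FPKM in *Dnmt1*-WT and 46.29 FPKM in *Dnmt1*-KO, a ratio of 0.898. *Myocd* held 56.4% of the sum in *Dnmt1*-WT and 39.3% in *Dnmt1*-KO. The share of *Mkl1* was 36.9% in *Dnmt1*-WT and 49.7% in *Dnmt1*-KO, and that of *Mkl2* was 6.79% and 11.0%. *Mkl1* stood at 0.654 times the level of *Myocd* in *Dnmt1*-WT and at 1.27 times in *Dnmt1*-KO, which makes it the most abundant of the family there. The level of *Srf* was 4.97 times that of *Mkl1* in *Dnmt1*-WT and 2.40 times in *Dnmt1*-KO.

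*Elk1*, a ternary complex factor activated by ERK kinases, was listed at 10.11 FPKM in *Dnmt1*-WT and 8.05 FPKM in *Dnmt1*-KO, a ratio of 0.796. The other two ternary complex factors bind SRF in the same manner. *Elk3* was listed at 8.21 and 11.46 FPKM, a ratio of 1.40, and *Elk4* at 7.52 and 7.78 FPKM, a ratio of 1.03 that turned to 0.965 when each library was divided by its FPKM sum. The 3 genes summed to 25.84 FPKM in *Dnmt1*-WT and 27.29 FPKM in *Dnmt1*-KO, a ratio of 1.06 that turned to 0.985 under the same division, and *Elk3* replaced *Elk1* as the most abundant. The summed level of the myocardin family was 2.00 times that of the ternary complex factors in *Dnmt1*-WT and 1.70 times in *Dnmt1*-KO. Of 4 ERK pathway kinases upstream of ELK1, 0 passed the fold, against 11.8% of all genes above 0 in both libraries at least doubled and 4.98% at most halved. *Mapk3* was listed at 136.06 FPKM in *Dnmt1*-WT and 150.46 FPKM in *Dnmt1*-KO. The ratios of *Map2k1*, *Map2k2* and *Braf* were 0.928, 1.01 and 0.792.

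*Klf5*, a factor of dividing SMCs that is also abundant in intestinal crypt epithelium, was listed at 4.36 FPKM in *Dnmt1*-WT and 9.68 FPKM in *Dnmt1*-KO. Its ratio of 2.22 was the highest of the 10 genes, and a ratio as high or higher was found for 9.94% of the genes above 0 in both libraries. With 1 FPKM added to both levels the ratio was 1.99, just under the fold. *Klf4*, a repressor of SMC contractile genes that also acts in differentiating epithelium, was listed at 13.37 and 18.78 FPKM, a ratio of 1.40. *Klf4* stood at 0.460 times the level of *Myocd* in *Dnmt1*-WT and at 1.03 times in *Dnmt1*-KO. *Klf5* stood at 0.150 times the level of *Myocd* in *Dnmt1*-WT and at 0.532 times in *Dnmt1*-KO.

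Of the 17 KLF genes searched for, 16 were listed and 15 were above 0 in both libraries. At least doubled were 2, *Klf5* and *Klf2*, a factor of endothelium and lymphocytes, which went from 18.01 to 37.92 FPKM, against 11.8% of all genes above 0 in both libraries. When each library was divided by its FPKM sum 1 was left, without *Klf2*, and with 1 FPKM added to both levels 1 was left, without *Klf5*. None of the 15 was at most halved, against 4.98% of all genes, and 9 had a ratio below 1, against 49.1%. *Klf9*, the most abundant in both libraries, was listed at 65.95 FPKM in *Dnmt1*-WT and 47.64 FPKM in *Dnmt1*-KO, and *Klf3*, the next in *Dnmt1*-WT, at 28.02 and 26.83 FPKM. The median log2 ratio of the family was -0.07. The members differed in both directions, from 0.719 to 2.22. *Klf4* and *Klf5* were a minor part of the family, with 5.67% and 1.85% of its summed level in *Dnmt1*-WT and 7.71% and 3.97% in *Dnmt1*-KO.

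*Gata6*, a zinc-finger factor of smooth muscle, mesothelium and gut epithelium, was listed at 5.07 FPKM in *Dnmt1*-WT and 8.18 FPKM in *Dnmt1*-KO, a ratio of 1.61. It held 61.8% of the summed level of the GATA family in *Dnmt1*-WT and 55.8% in *Dnmt1*-KO. The ratios of the 5 listed GATA genes were all above 1, while 49.1% of all genes above 0 in both libraries had a ratio below 1. The ratios of *Gata2* (2.88) and *Gata4* (2.34) were past the fold. With 1 FPKM added to both levels, or with at least 1 FPKM required in both libraries, 0 of the family were past it. Among all genes with a geometric mean of both libraries under 1 FPKM 32.5% at least doubled, and among those from 1 to 3 FPKM 17.9%. A ratio below 1 was found for 36.6% and 44.3% of these genes, and for 54.2% of those from 3 to 10 FPKM. *Gata2* and *Gata4* were low in both libraries, *Gata2* at 0.78 and 2.25 FPKM and *Gata4* at 0.32 and 0.75 FPKM. *Gata5* was listed at 1.83 and 3.1 FPKM and *Gata3* at 0.2 and 0.37 FPKM. The median log2 ratio of the family was 0.73.

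*Mef2c*, a factor of muscle, endothelium and neurons, was listed at 8.48 FPKM in *Dnmt1*-WT and 8.56 FPKM in *Dnmt1*-KO. Its ratio of 1.01 was the closest to 1 of the 10 genes, and it fell below 1 when each library was divided by its FPKM sum. *Mef2d* and *Mef2a*, the abundant MEF2 genes of this tissue, were listed at 32.95 and 30.72 FPKM in *Dnmt1*-WT and at 28.34 and 23.02 FPKM in *Dnmt1*-KO, ratios of 0.860 and 0.749. *Mef2b* was at 0.11 and 0.18 FPKM. *Mef2c* held 11.7% of the summed MEF2 level in *Dnmt1*-WT and 14.2% in *Dnmt1*-KO.

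*Foxf1*, a factor of gut mesenchyme, was listed at 75.44 FPKM in *Dnmt1*-WT and 48.34 FPKM in *Dnmt1*-KO, a ratio of 0.641. Its paralogue *Foxf2*, also expressed in gut mesenchyme, was listed at 29.22 FPKM in *Dnmt1*-WT and 6.46 FPKM in *Dnmt1*-KO. The ratio of *Foxf2*, 0.221, was past the fold and far lower than that of *Foxf1*. *Foxf1* stood at 2.58 times the level of *Foxf2* in *Dnmt1*-WT and at 7.48 times in *Dnmt1*-KO. *Foxl1*, a hedgehog-responsive gene of the mesenchyme next to the epithelium, was listed at 0 in *Dnmt1*-WT and at 0.18 FPKM in *Dnmt1*-KO.

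**Figure D3:**
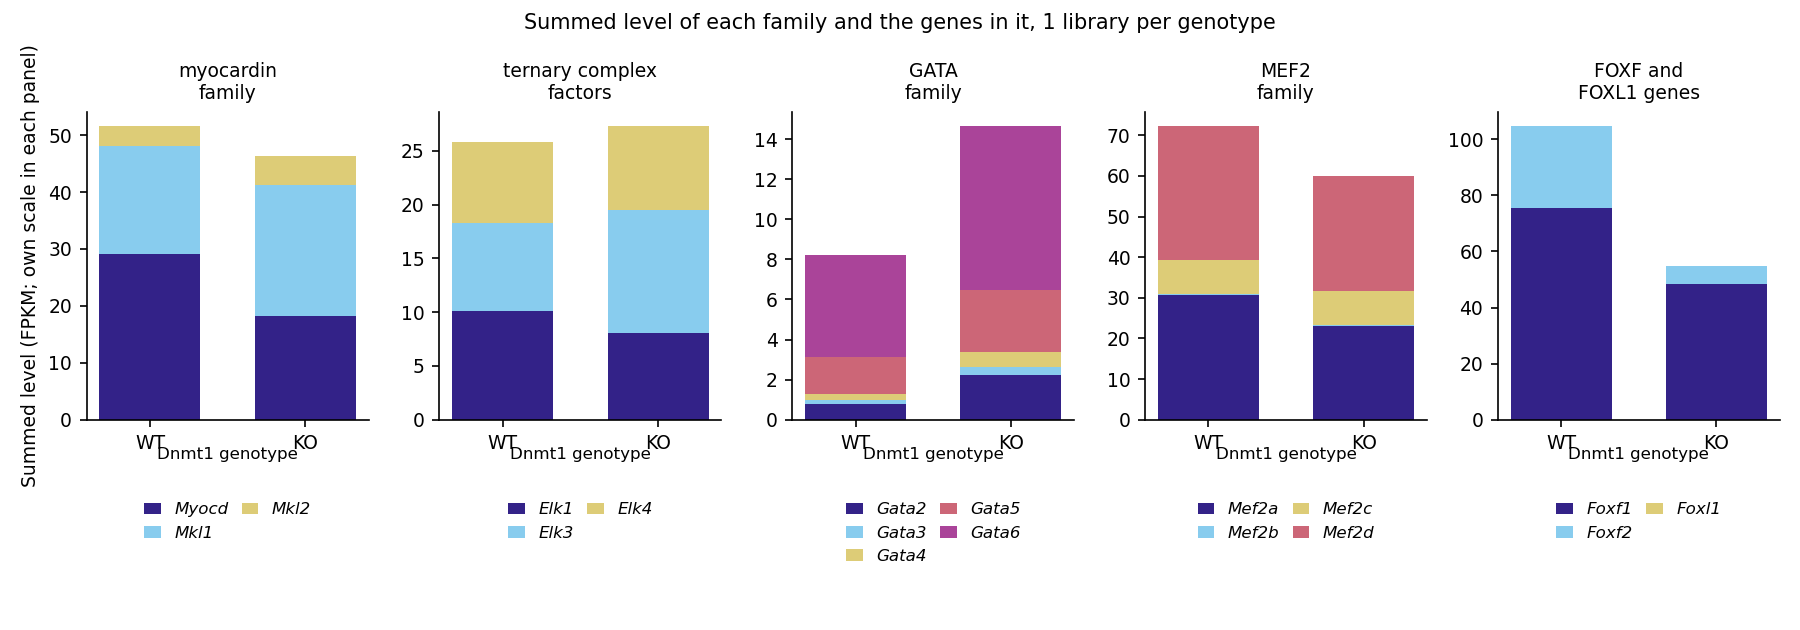
Summed FPKM of the myocardin family, the ternary complex factors, the GATA family, the MEF2 family and the FOXF and FOXL1 genes in the *Dnmt1*-WT and *Dnmt1*-KO libraries, with each gene a part of the bar and each panel on its own scale from 0. The share of *Myocd* is 56.4% of its bar in *Dnmt1*-WT and 39.3% in *Dnmt1*-KO, and *Foxf2* shrinks from 29.22 to 6.46 FPKM.

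Hedgehog signalling acts upstream of *Foxf1* in the gut wall. Of 10 hedgehog genes searched for, 9 were listed. Of these, 3 at least doubled and none was at most halved, and with 1 FPKM added to both levels 0 were past the fold in the upward direction. When each library was divided by its FPKM sum the numbers were 2 higher, without *Gli1* at 1.97, and 1 lower, *Gli3*, an effector of the pathway that was listed at 9.35 and 5.01 FPKM, a ratio of 0.536 before the division. Of all genes above 0 in both libraries 11.8% at least doubled, and 2 of the 3, *Ihh* at 0.31 and 0.88 FPKM and *Dhh* at 0.72 and 1.92 FPKM, lie at the low levels for which the shares are 32.5% and 17.9%. The median log2 ratio was 0.089, which turned to -0.011 when each library was divided by its FPKM sum. *Smo*, the signal transducer, was listed at 49.44 and 38.96 FPKM, and *Ptch1*, its inhibitory receptor and a target of the pathway, at 18.82 and 15.57 FPKM. *Gli1*, a target and effector of the pathway, was listed at 6.25 FPKM in *Dnmt1*-WT and 13.18 FPKM in *Dnmt1*-KO, a ratio of 2.11. *Ihh* and *Dhh* encode ligands.

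Of 17 genes for other partners and modulators of SRF and myocardin, 12 had a ratio below 1, 1 at least doubled and 1 was at most halved, with a median log2 ratio of -0.34. Over all genes above 0 in both libraries the shares were 49.1% below 1, 11.8% at least doubled and 4.98% at most halved. Division by the FPKM sum gave 2 at most halved, with *Hopx*, a homeodomain cofactor of SRF at 11.61 and 6 FPKM, a ratio of 0.517 before the division. *Fhl2*, a LIM-domain cofactor and target of SRF, was listed at 49.56 FPKM in *Dnmt1*-WT and 23.7 FPKM in *Dnmt1*-KO, a ratio of 0.478. *Prrx1*, a homeodomain partner of SRF in mesenchyme, was listed at 0.55 and 2.87 FPKM, and was not counted where at least 1 FPKM was required in both libraries. The LIM-domain genes *Csrp1* and *Csrp2* differed in opposite directions, *Csrp1* at 1972.75 and 1529.44 FPKM and *Csrp2* at 108.37 and 182.03 FPKM.

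Known targets of SRF were listed in contractile and immediate early classes, and the difference between the classes was not tested. Of 20 contractile targets, 19 had a ratio below 1, 6 were at most halved and 1 at least doubled, and the median log2 ratio was -0.61. Over all genes above 0 in both libraries 49.1% were below 1, 4.98% at most halved and 11.8% at least doubled, and over those with a geometric mean of 100 FPKM or more 38.0%, 2.93% and 4.17%. At most halved were *Synm* (ratio 0.420), *Smtn* (0.427), *Mylk* (0.443), *Myh11* (0.468), *Lmod1* (0.485) and *Tpm2* (0.498), which encode filament, myosin and thin-filament proteins and myosin light-chain kinase. The number was 5 under median centring and the trimmed mean, without *Tpm2*, and 4 under the upper quartile, without *Lmod1* as well. The exception was *Itga8*, an integrin subunit, at 5.6 and 12.81 FPKM. The ratios of *Srf* and *Myocd* lay within the range of their targets, with 8 of the 20 lower and 12 higher than *Srf*, and the same numbers for *Myocd*. Of 10 immediate early targets, 7 had a ratio above 1, 3 at least doubled and none was at most halved, with a median log2 ratio of 0.20. Over all genes above 0 in both libraries 11.8% at least doubled, 4.98% were at most halved and 49.1% had a ratio below 1. Of the 3 doubled genes, 1, *Egr2*, was under 1 FPKM in both libraries. Among all genes with a geometric mean of both libraries under 1 FPKM 32.5% at least doubled. *Ctgf* was listed at 34.24 and 129.64 FPKM, *Cyr61* at 18.97 and 94.41 FPKM and *Mcl1* at 69.48 and 80.74 FPKM. Lower in *Dnmt1*-KO were 3 of the 10: *Fos*, *Fosb* (ratio 0.718) and *Egr1* (0.948). *Fos* was listed at 31.84 and 16.21 FPKM, a ratio of 0.509. It passed the fold when each library was divided by its FPKM sum. Both lists hold genes already known to differ in these libraries, so they are no independent evidence of a direction.

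CArG boxes in promoter windows were sought in the targets too, and 1 match is shown for each target gene that held any, a full box where there was one. Of 17 contractile targets with a window, 2 held a CArG box, *Myl9* and *Vcl*, and 4 held one or a match with 1 base of the middle other than A or T, which adds *Acta2* and *Synm*. Of 6 immediate early targets with a window, 1, *Egr2*, held CArG boxes, and 2 held one or such a match, which adds *Mcl1*. Over all genes with a window these shares were 1.81% and 11.3%. Sequence outside the windows was not searched, so a window without a match does not mean that the gene lacks a CArG box. Below, each stretch of 30 bases reads 5′ to 3′ on the strand of the gene (GRCm38.p6), with the match in capitals, at chr2:156775293-156775322 (plus) for *Myl9*, chr14:20929161-20929190 (plus) for *Vcl*, chr19:34255438-34255467 (minus) for *Acta2*, chr7:67759962-67759991 (minus) for *Synm*, chr10:67537787-67537816 (plus) for *Egr2* and chr3:95658703-95658732 (plus) for *Mcl1*.
*Myl9*: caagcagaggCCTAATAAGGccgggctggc
*Vcl*: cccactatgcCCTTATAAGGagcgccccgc
*Acta2*, 1 base other: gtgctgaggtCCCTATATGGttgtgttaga
*Synm*, 1 base other: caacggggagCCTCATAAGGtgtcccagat
*Egr2*: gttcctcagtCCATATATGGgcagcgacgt
*Mcl1*, 1 base other: gcccctttccCCTTTTACGGgaagtcctcg

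The genes with such matches had ratios on both sides of 1. *Myl9*, a regulatory myosin light chain, was listed at 5526.94 FPKM in *Dnmt1*-WT and 3647.37 FPKM in *Dnmt1*-KO, and *Acta2*, smooth muscle actin, at 5408.13 and 4016.24 FPKM. *Vcl*, which encodes the adhesion protein vinculin, was listed at 139.2 and 90.28 FPKM. *Egr2*, a zinc-finger gene of the growth response, was listed at 0.05 and 0.48 FPKM, both low.

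**Figure D4:**
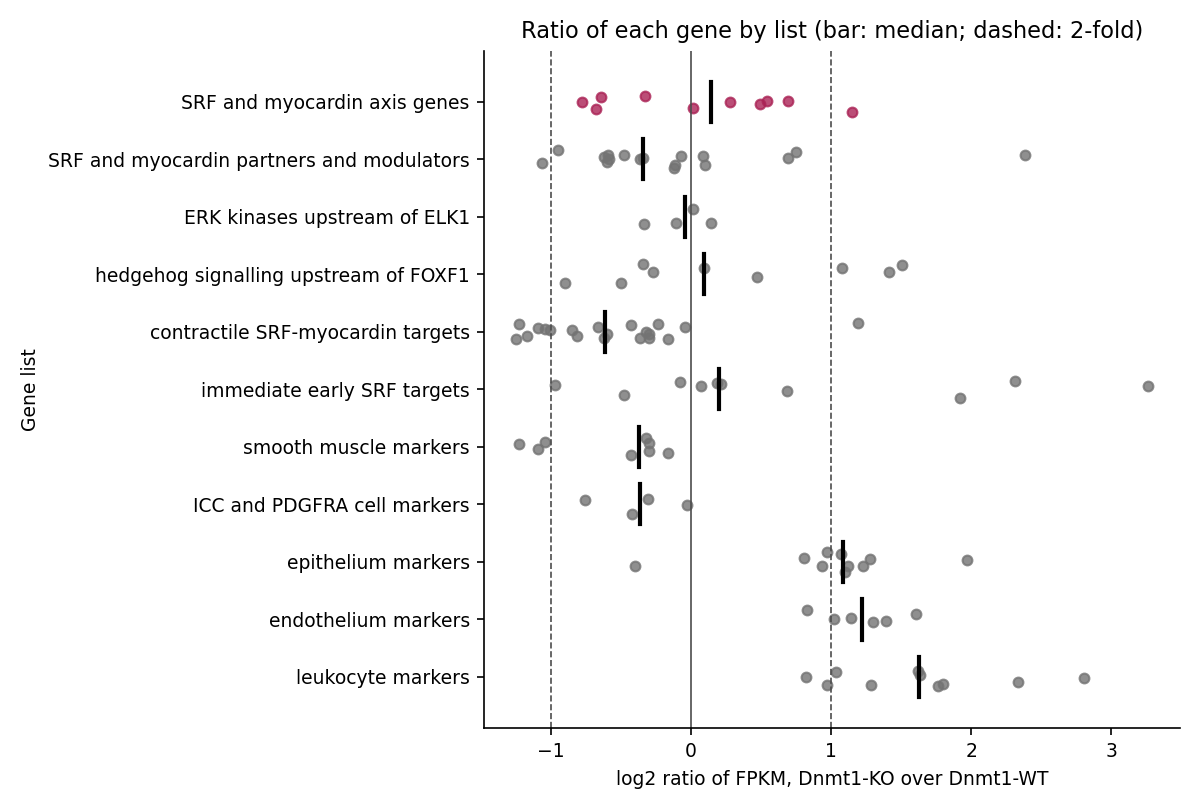
The log2 ratio of *Dnmt1*-KO to *Dnmt1*-WT for each gene above 0 FPKM in both libraries, by list, with a bar at the median of these ratios and dashed lines at a fold of 2. The 10 axis genes (red) spread from *Srf* on the left to *Klf5* on the right, while 19 of 20 contractile targets lie left of 0 and all endothelium markers lie right of it. The smooth muscle markers are all among the contractile targets and are drawn in both rows.

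The table gives the number of transcript variants found for each gene. This number was the same in both libraries for 8 of the 10 genes: *Myocd* with 6, *Mef2c* with 5, *Mkl1* with 4, *Klf5* and *Mkl2* with 2, and *Elk1*, *Klf4* and *Foxf1* with 1. Among genes above 0 in both libraries it was the same for 5988 of the 6758 with 1 variant in *Dnmt1*-WT, of which 0 had fewer. For those with 2, 4, 5 and 6 variants it was the same for 3593 of 4879, 520 of 1099, 189 of 473 and 70 of 182. *Srf* and *Gata6* had 3 variants in *Dnmt1*-WT and 2 in *Dnmt1*-KO. Of the 2540 genes above 0 in both libraries with 3 variants in *Dnmt1*-WT, 28.7% had fewer in *Dnmt1*-KO, so the loss of a variant was common at that number. The variants are not named in the table.

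Annotated neighbours share exon bases with 5 of the 10 genes in GENCODE M21, and whether the counting used strand is not given in the sources used here. Without strand, reads of a pair on opposite strands cannot be told apart where they overlap. For a pair on the same strand they cannot be told apart there with strand either. *Elk1* shares 76 exon bases with *Uxt* on the same strand, and *Uxt* was listed at 10.21 and 10.43 FPKM. *Gata6*, on chromosome 18 from 11052064 to 11085635, shares 93 with *1010001N08Rik* on the opposite strand, listed at 1.17 and 0.81 FPKM. *Mkl1* shares 10 with *Sgsm3*, listed at 6.51 and 5.83 FPKM. *Mkl2* and *Foxf1* share 162 and 98 bases with genes of the opposite strand that have no values here.

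The labelled tissue was checked against marker genes. All 8 smooth muscle markers were above 0 in both libraries and all were lower in *Dnmt1*-KO. Of all genes above 0 in both, 49.1% had a ratio below 1. All 8 are also among the 20 contractile targets above, so they are the same genes and no second result. The markers had a median ratio of 0.772 and a summed level of 16755 FPKM in *Dnmt1*-WT and 12123 FPKM in *Dnmt1*-KO. *Srf*, *Myocd* and *Foxf1* each had a lower ratio than 5 of the 8, and *Mkl1*, *Mkl2*, *Klf4*, *Klf5*, *Gata6* and *Mef2c* a higher ratio than all 8. In a bulk library, fewer SMCs and less RNA per SMC cannot be told apart. Of the 16102 genes above 0 in both libraries, 8106 had a ratio above 1. Markers of other cells were higher in *Dnmt1*-KO: 9 of 10 for epithelium (summed level 164.94 and 327.72 FPKM), all 6 for endothelium (46.27 and 106.47 FPKM) and all 11 for leukocytes (48.4 and 135.9 FPKM), with *Cd3e* at 0 in *Dnmt1*-WT. Most of the epithelium sum was the keratin gene *Krt19*, at 96.08 and 188.37 FPKM, while *Epcam* was at 7.3 and 13.95 FPKM. That sum is therefore mainly a keratin level. *Klf4*, *Klf5*, *Gata6*, *Klf2* and *Mef2c* are known in some of these cell types, and the part of such cells in their levels was not tested. Nor was it tested for the shares within the myocardin family and the ternary complex factors. The 4 markers of interstitial cells of Cajal and PDGFRA cells were all lower without rescaling (192.8 and 145.01 FPKM), against 49.1% of all genes. Their ratios ran from 0.591 for *Pdgfra* to 0.978 for *Kit*, which is close to 1. The part of interstitial cells of Cajal and PDGFRA cells in the level of *Foxf1* was not tested. The summed level of the 4 mesothelium markers was 241.97 and 238.9 FPKM. Adipocyte markers summed to 107.8 and 1166.33 FPKM, with *Lep* at 0 in *Dnmt1*-WT, enteric neuron markers to 471.93 and 580.38 FPKM, enteric glia markers to 59.23 and 88.93 FPKM, and skeletal and cardiac muscle markers to 354.08 and 397.01 FPKM, with 4 of 8 at least doubled and 2 at most halved, against 11.8% and 4.98% of all genes, and *Myod1* and *Nkx2-5* at 0 in both. *Dnmt1* itself was listed at 11.58 FPKM in *Dnmt1*-WT and 7.58 FPKM in *Dnmt1*-KO, a level over the whole gene that does not separate the deleted exons from the rest.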

How the data were processed

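RNA of jejunal tunica muscularis was sequenced as 1 TruSeq library per genotype and, per the methods, mapped to GRCm38. The submitters' processing notes name TopHat 1.4.1 and Cufflinks 2.0.2. The deposited values are FPKM by the authors, fragments scaled to transcript length and mapped total, listed to 2 decimals, with the number of transcript variants. The files give no fragment counts, so the depth behind each gene's level is unknown. The study states mapped reads per library, which are not used here, and the transcript lengths behind the values are not given in the sources used here. The lowest level above 0 was 0.03 FPKM in both libraries, and no interval was computed. The authors' deposited fold column holds their own comparison and was not used.

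With 1 library per genotype there was no test and there are no p-values. Ratios are plain ratios of FPKM, list medians use a pseudocount of 0.1, and counts use genes above 0 in both libraries. Gene lists hold the genes named in the text by a fixed rule: all 10 genes, every member of families of up to 6, and otherwise genes past the fold with at least 1 FPKM in 1 library and the most abundant 2. *Myl9*, *Vcl*, *Acta2* and *Egr2* are shown for their promoter windows, and overlapping genes for their position. The window genes were chosen after their values were seen, as were *Fos*, *Fosb*, *Egr1*, *Ihh*, *Gli3*, *Hopx* and cell markers named with values. The members and lists were chosen with earlier results of these data known. Symbols were matched to RefSeq (GRCm38.p6) and GENCODE M21 names, with *Mkl1* and *Mkl2* as *Mrtfa* and *Mrtfb*. *Klf17*, *Gata1*, *Shh* and *Myh4* were not matched to the table. Proteins were not compared, and some genes of the pathway lists and 1 list are not reported here. The counting, scalings and centring were tested on simulated data. Python 3.11.15, numpy 2.4.6, pandas 2.3.3 and matplotlib 3.10.9 were used.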

Additional observations from a re-analysis of the deposited data

How the results depend on the processing

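The alternatives were 5 scalings between libraries, centring on level in 20 bins, pseudocounts of 1 and 0.01 FPKM, a fold of 1.5 and a minimum of 1 FPKM in both libraries. The largest shift of all log2 ratios came from division by the FPKM sum, -0.10. Under the 8 scalings, centrings and pseudocounts, 9 of the 10 genes kept the direction of their ratio, and *Mef2c* turned in 2 of them, to as low as 0.941. The number of the 10 genes at least doubled was 0 with a pseudocount of 1, because *Klf5* came to 1.99. At a fold of 1.5 the numbers were 2 higher and 3 lower without rescaling, and the upper quartile took *Foxf1* out and brought *Mkl2* in. Of 81 other genes of the family and pathway lists above 0 in both libraries, 11 were higher and 8 lower by the fold of 2, against 11.8% and 4.98% of all genes. These numbers were 5 higher and 8 lower with a pseudocount of 1, and 17 higher and 20 lower at a fold of 1.5 (all genes: 19.7% and 12.6%). With at least 1 FPKM in both libraries they were 5 higher and 8 lower of 69 (all such genes: 5.53% and 2.82%). Division by the FPKM sum gave 9 higher and 11 lower, and the upper quartile 11 higher and 6 lower. The medians of the ternary complex factors and the hedgehog genes changed sign under both FPKM sums, to -0.051 and -0.011 at the lowest, and that of the ERK kinases, -0.047, came to 0.017 under the upper quartile. The median of the FOXF and FOXL1 genes was -0.64, and -1.39 after centring on level, which leaves out *Foxl1*. No paired analysis was possible because each genotype has 1 library, and leaving out a library leaves no comparison. Fragment counts per gene were not used here, so levels under 1 FPKM, such as those of *Gata2*, *Gata4* and *Egr2* in *Dnmt1*-WT, are given without a counting error.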
